A study of Mus musculus with 6 samples.

Results

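KPC180 is 1 of 6 mouse pancreatic ductal adenocarcinoma cell lines of this series, and it was set against the other 5, KPC142, KPC469, KPC490, KPC630 and KPC850. Of 56953 Ensembl genes in the table, 10234 reached at least 10 CPM (the count of a gene scaled to library size, with TMM factors) in 1 or more of the 6 lines, and these are called measured genes here. In KPC180, 22 of them lay at least 4-fold above the highest of the other 5 lines, which is 0.215% of the measured genes, and 61 lay at least 4-fold below the lowest, which is 0.596%. The labels describe every line as pancreatic adenocarcinoma cells derived from KPC mice and give no genotype, sex, age, passage or treatment. KPC is the usual name of engineered mouse models of pancreatic cancer in which a Cre recombinase acts in the pancreas. Total RNA was extracted with TRIzol and made into stranded poly(A) libraries. The study compared lines whose tumours draw few CD8+ T cells with lines whose tumours draw many, but the labels do not give the class of any line.

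Each line is represented by 1 library, so no test between lines was possible, and no spread between cultures of KPC180 is known. A 4-fold rule therefore stands in place of a test, and ratios carry exact conditional binomial 95% intervals that cover counting error only. Counts cannot tell fewer cells with a transcript from less RNA per cell. Where a library had 0 counts of a gene, the ratio was computed with a floor of 3 counts in that library, worth 0.160 to 0.182 CPM, and is given as a bound. Library totals were 16715216 counts in KPC180 and 16471558 to 18701274 in the other lines, so 1 count was worth 0.0607 CPM in KPC180.

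Tumour cell lines of one mouse model share the same initiating lesions but differ in gene dosage, in the genes they have silenced and in how far they keep a ductal or gastric type of epithelium. Such lines can switch on receptors, matrix genes and endocytic proteins that normal duct cells do not make, and single genes can be silenced while their neighbours stay active. Silencing at a promoter rich in CpG dinucleotides often goes with DNA methylation, whereas promoters with few CpGs depend more on the factors that a cell type makes.

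Cells of KPC180 carried the markers of pancreatic tumour epithelium. The 8 measured genes of that list had a median log2 ratio of 0.00 to the median of the other 5 lines, and all 10 genes of the list summed to 7210 CPM in KPC180 and to 2912 to 12121 CPM in the others. Krt19, the duct keratin, stood at 837 CPM in KPC180, against 2111 in KPC142, 887 in KPC469, 2062 in KPC490, 2657 in KPC850 and 2755 in KPC630. Markers of stromal, vascular and blood cells stayed low. In any line, the highest fibroblast marker reached 3.05 CPM, the highest endothelial marker 2.50, the highest myeloid marker 3.78, the highest T and NK cell marker 1.69, the highest erythroid marker 0.160 and the highest B cell marker 0.0532 CPM. Of 10 acinar markers 9 stayed under 1 CPM in every line, and the exception was the elastase gene Cela1, with 20.6 CPM in KPC180, against 2.22 in KPC142, 2.89 in KPC469, 3.43 in KPC490, 9.15 in KPC850 and 0.958 in KPC630. Of 21 endocrine markers 18 stayed under 1 CPM in every line, and the measured one was the pancreatic transcription factor gene Pdx1, at 43.7 CPM in KPC180, against 54.2 to 82.5 in the other lines. Markers of neurons and glia and of hepatocytes were not all low. Of 8 neuron and glia markers 4 stayed under 1 CPM in every line, and 2 were measured, the microtubule gene Map2, at 7.89 CPM in KPC180 and 4.70 to 62.1 CPM in the other lines, and the tubulin gene Tubb3, at 8.19 CPM in KPC180 and 1.68 to 14.2 CPM in the others. Of 5 hepatocyte markers 2 stayed under 1 CPM in every line, and the measured one was the alpha-fetoprotein gene Afp, at 3.46 CPM in KPC180 and 1.96 to 13.7 CPM in the others.

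Among the 5 genes taken as markers of KPC180, 4 followed the 4-fold rule. The markers were chosen with results of these same libraries known, so their values are no independent check. Glp1r, Adamts2 and Lrp2 were above every other line and Amdhd2 was below every other line. The fifth, Igf2bp1, a fetal RNA-binding protein, was highest in KPC180 but close to KPC490. It stood at 144 CPM in KPC180, against 53.3 in KPC142, 1.53 in KPC469, 110.4 in KPC490, 21.1 in KPC850 and 41 in KPC630, a ratio of 1.3 to KPC490 (interval 1.23 to 1.39).

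The upstream sequences of 5 of the genes farthest from the other lines are shown because they are of different base composition, 3 from genes above and 2 from genes below. They are RefSeq sequences of build GRCm38.p6, each 200 bases long and covering bases 250 to 51 before the RefSeq start on the gene's strand, with every CpG in capitals. Glp1r lies at chr17:30901617-30901816 on the plus strand, Adamts2 at chr11:50601835-50602034 on the plus strand, Lrp2 at chr2:69586080-69586279 on the minus strand, Nexmif at chrX:104201235-104201434 on the minus strand and Egln3 at chr12:54203925-54204124 on the minus strand.
Glp1r: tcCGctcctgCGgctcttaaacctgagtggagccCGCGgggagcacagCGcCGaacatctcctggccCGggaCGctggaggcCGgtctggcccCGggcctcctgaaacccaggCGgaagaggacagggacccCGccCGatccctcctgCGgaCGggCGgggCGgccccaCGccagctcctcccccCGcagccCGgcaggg
Adamts2: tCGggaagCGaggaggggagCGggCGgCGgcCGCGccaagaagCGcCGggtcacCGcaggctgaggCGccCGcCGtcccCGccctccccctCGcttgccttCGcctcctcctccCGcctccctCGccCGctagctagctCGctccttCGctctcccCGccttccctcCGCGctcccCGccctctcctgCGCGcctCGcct
Lrp2: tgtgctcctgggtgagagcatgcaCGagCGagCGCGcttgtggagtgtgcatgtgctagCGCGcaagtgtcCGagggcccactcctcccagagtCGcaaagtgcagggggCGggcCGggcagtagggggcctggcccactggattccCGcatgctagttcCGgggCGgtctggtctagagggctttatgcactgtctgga
Nexmif: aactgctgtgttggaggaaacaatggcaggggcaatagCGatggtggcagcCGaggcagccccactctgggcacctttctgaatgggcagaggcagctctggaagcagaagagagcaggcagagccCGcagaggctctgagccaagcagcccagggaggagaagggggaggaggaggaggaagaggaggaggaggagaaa
Egln3: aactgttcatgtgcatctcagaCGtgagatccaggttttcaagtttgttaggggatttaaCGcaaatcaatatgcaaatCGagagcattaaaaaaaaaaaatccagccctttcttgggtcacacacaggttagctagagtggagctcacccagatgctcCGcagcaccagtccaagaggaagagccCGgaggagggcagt

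The stretches held 20 CpGs at Glp1r, 28 at Adamts2, 13 at Lrp2, 3 at Nexmif and 5 at Egln3. Having been picked for differing composition, they do not stand for the genes above or below. The whole 300-base promoter of Egln3 held 16 CpGs, with a ratio of observed to expected CpG of 0.715, beside 20 CpGs and 0.652 at Lrp2. Clca3a1, a gene above, had 3 CpGs in its promoter, and Tanc2, a gene below, had 57. RefSeq promoters of 300 bases were found for 12 of the 22 genes above (14 promoters) and for 34 of the 61 genes below (44 promoters). A ratio of observed to expected CpG over 0.6 was found in 7 of 14 promoters above (50%), in 20 of 44 below (45.5%) and in 7694 of 10385 promoters of measured genes (74.1%). The letters TATAAA, on either strand, were found in 2 of 14 promoters above (14.3%), in 8 of 44 below (18.2%) and in 719 of the promoters of measured genes (6.92%). These shares describe the windows, and methylation or factor binding was not measured.

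**Figure D1:**
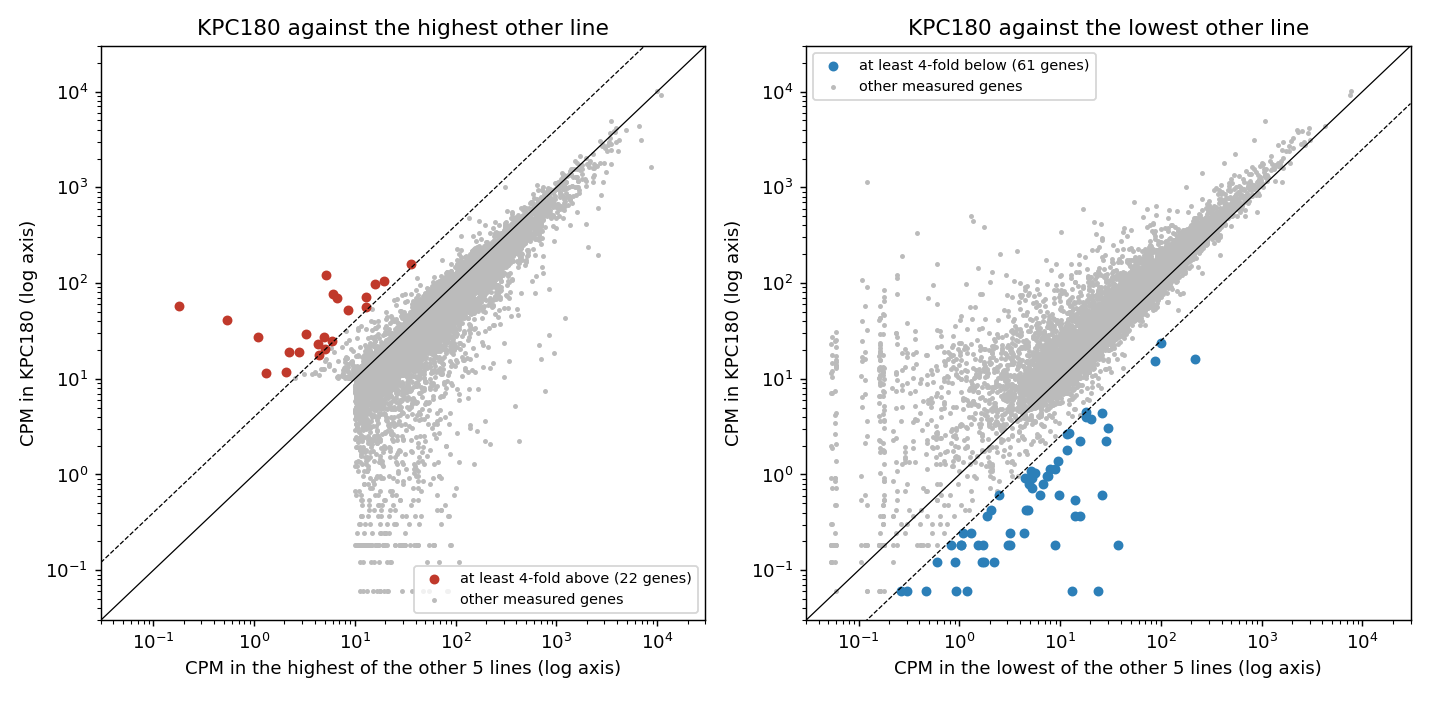
CPM of every measured gene in KPC180 (vertical, log axis) against the highest (left) and the lowest (right) of the other 5 lines (horizontal, log axis), with equality as a solid line and 4-fold as a dashed line; libraries at 0 counts are drawn at the floor of 3 counts. By the rule that picked them, the 22 genes above and the 61 genes below lie past the dashed lines. Most of the 61 stand under 1 CPM in KPC180.

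KPC180 took a middle place among the lines. It was the highest of the 6 lines for 1642 measured genes (16%) and the lowest for 1679 (16.4%). It was at least 2-fold above every other line for 80 of them (0.782%) and at least 2-fold below for 151 (1.48%). These are the shares beside which counts in gene lists stand. Some genes counted as highest or above, here and in the lists, reached 10 CPM in KPC180 alone. For these the filter fixed KPC180 as the highest line. Under the 4-fold rule KPC469 had 80 genes above and 78 below all others, KPC142 had 9 and 74, KPC850 had 18 and 31, KPC490 had 21 and 10, and KPC630 had 16 and 10. The Spearman correlation of KPC180 over measured genes, given as a description across genes of single libraries, was 0.921 with KPC630, 0.916 with KPC850, 0.915 with KPC490, 0.904 with KPC142 and 0.877 with KPC469. Over all measured genes the median log2 ratio of KPC180 to the median of the other lines was -0.01, with quartiles of -0.30 and 0.29.

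The 22 genes above all code for proteins, and their median ratio to the nearest line was 6.16. Most of the 22 reached 10 CPM in KPC180 alone, so they counted as measured only through the line where they are high. The interval lay wholly past 4-fold for 18 of them. Without KPC850 in the comparison the count was 34. For 12 of the 22 genes, leaving out the nearest line moved the ratio by over 1.5 times, and those values stand beside the genes described in full.

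Among the genes above were receptors of the cell surface. Glp1r (ENSMUSG00000024027), the receptor of the incretin hormone GLP-1, which signals through cyclic AMP and is known from pancreatic beta cells, stood at 57 CPM in KPC180, against 0 in KPC142, 0 in KPC469, 0.116 in KPC490, 0 in KPC850 and 0 in KPC630. KPC180 thus had 940 counts where KPC490 had 2 and the other 4 lines 0, and its level was at least 317-fold higher. Lrp2 (ENSMUSG00000027070), or megalin, an endocytic receptor of the LDL receptor family best known from the kidney tubule, stood at 120.3 CPM in KPC180, against 0.24 in KPC142, 1.69 in KPC469, 0.697 in KPC490, 1.34 in KPC850 and 5.16 in KPC630, a ratio of 23.3 to KPC630 (interval 19 to 28.9), and of 71.2 without KPC630. Dab2, the adaptor that binds the tail of such receptors, was also highest in KPC180, but it was not a gene of KPC180 alone. It stood at 85.6 CPM in KPC180, against 0.18 in KPC142, 2.72 in KPC469, 0.929 in KPC490, 57.2 in KPC850 and 31.8 in KPC630, a ratio of 1.5 to KPC850. Cubn, the co-receptor of megalin in the kidney, was not highest in KPC180, with 29.9 CPM in KPC180, against 77.3 in KPC142, 1.96 in KPC469, 8.25 in KPC490, 23.4 in KPC850 and 15.9 in KPC630. Of 7 markers of the kidney proximal tubule, 5 stayed under 1 CPM in every line.

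Around Glp1r, 16 genes of class B receptors and cyclic AMP signalling were measured, with a median log2 ratio of 0.25. KPC180 was highest for 5 and lowest for 0 of them, and 1 gene, Glp1r itself, was at least 2-fold above every other line. Rapgef4, which codes for the cyclic AMP-activated exchange factor EPAC2, stood at 10.9 CPM in KPC180, against 0.479 to 7.43 in the other lines. Rapgef4 reached 10 CPM in KPC180 alone. The phosphodiesterase gene Pde4a stood at 30.3 CPM in KPC180, against 12 to 22.6 in the other lines. Of the 19 measured members of the LDL receptor family and other endocytic receptors, with a median of 0.37, KPC180 was highest for 3, and Lrp2 was the 1 gene at least 2-fold above every other line.

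Further surface genes were above with wider or narrower margins. Siglec15, a lectin that binds sialic acid and is known from osteoclasts and macrophages, stood at 11.5 CPM in KPC180, against 0.0599 in KPC142, 1.31 in KPC469, 0.523 in KPC490, 0.758 in KPC850 and 0.0532 in KPC630, a ratio of 8.77 to KPC469 (interval 5.72 to 14), and of 15.1 without KPC469. Sdc2, the heparan sulphate proteoglycan syndecan-2, stood at 56.4 CPM in KPC180, against 2.76 in KPC142, 1.42 in KPC469, 3.25 in KPC490, 12.8 in KPC850 and 11.2 in KPC630, a ratio of 4.4 (interval 3.8 to 5.12). KPC630 and KPC850 formed the nearest pair for Sdc2, and the other 3 lines stood at or below 3.25 CPM.

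The genes above also held genes of the matrix. Adamts2 (ENSMUSG00000036545), the protease that trims the amino end of procollagen, stood at 41.1 CPM in KPC180, against 0.539 in KPC142, 0 in KPC469, 0 in KPC490, 0 in KPC850 and 0 in KPC630. Its ratio to the 9 counts of KPC142 was 76.3 (interval 40.0 to 168), and it was at least 235 without KPC142, since the other 4 lines had 0 counts. The related Adamts14, under 10 CPM in every line and chosen after its values were seen, stood at 6.19 CPM in KPC180, against 0 to 1.8 in the other lines. Col27a1, a fibrillar collagen of cartilage, stood at 106 CPM in KPC180, against 15.4 in KPC142, 3.49 in KPC469, 11.7 in KPC490, 10.8 in KPC850 and 19.5 in KPC630, a ratio of 5.42 to KPC630 (interval 4.84 to 6.09).

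The measured hyaluronan synthase genes, Has2 and Has3, reached 10 CPM in KPC180 alone. That KPC180 was their highest line was therefore fixed by the filter. Has2 stood at 19.2 CPM in KPC180, against 0 in KPC142, 0.436 in KPC469, 2.21 in KPC490, 0.117 in KPC850 and 0.213 in KPC630, a ratio of 8.69 to KPC490 (interval 6.19 to 12.5), and of 44 without KPC490. Has3 stood at 21.1 CPM in KPC180, against 2.46 in KPC142, 5.5 in KPC469, 5.75 in KPC490, 1.63 in KPC850 and 2.24 in KPC630, a ratio of 3.67 to KPC490, just under the 4-fold rule. Has1, under 10 CPM in every line, stood at 2.61 CPM in KPC180, against 0.523 to 1.42 in the other lines.

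Secreted proteins with a place in the matrix followed. Nell2, a glycoprotein with EGF-like repeats, stood at 51.8 CPM in KPC180, against 4.01 in KPC142, 4.74 in KPC469, 8.48 in KPC490, 3.79 in KPC850 and 2.77 in KPC630, a ratio of 6.1 to KPC490, and of 10.9 without KPC490. Mmp10, the metalloprotease stromelysin-2, stood at 24.9 CPM in KPC180, against 0.419 in KPC142, 5.88 in KPC469, 0.348 in KPC490, 0.0583 in KPC850 and 0.106 in KPC630, a ratio of 4.23 to KPC469 (interval 3.41 to 5.28). Without KPC469 the ratio was 59.3-fold, so the ratio of Mmp10 rests on 1 line. Of 31 measured matricellular and matrix glycoprotein genes, with a median log2 ratio of 0.34, 3 (Has2, Has3 and Sdc2) were at least 2-fold above every other line and 2 (Vcan and Ccn3) at least 2-fold below. Of 41 measured genes of extracellular proteases and inhibitors, with a median of 0.04, KPC180 was highest for 11 and lowest for 5, and Adamts2, Mmp10 and the serine protease gene Prss22 were at least 2-fold above. Of 11 measured collagen genes 1, Col27a1, was at least 2-fold above and 0 at least 2-fold below.

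Genes of ion channels and transporters were also among the 22. Kcnab1, a beta subunit of voltage-gated potassium channels, stood at 97.8 CPM in KPC180, against 6.65 in KPC142, 15.7 in KPC469, 12.1 in KPC490, 4.66 in KPC850 and 1.17 in KPC630, a ratio of 6.21 to KPC469 (interval 5.47 to 7.06). Kcnh2, the hERG potassium channel, stood at 11.9 CPM in KPC180, against 0.24 in KPC142, 2.07 in KPC469, 0.348 in KPC490, 0.175 in KPC850 and 1.33 in KPC630, a ratio of 5.75 to KPC469, and of 8.94 without KPC469. The calcium-activated potassium channel gene Kcnn3 was below the rule, with 32.2 CPM in KPC180, against 5.69 in KPC142, 0.599 in KPC469, 0.755 in KPC490, 1.46 in KPC850 and 10.7 in KPC630, a ratio of 3.01 to KPC630.

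The channel list as a whole lay slightly low in KPC180. Its 20 measured genes had a median log2 ratio of -0.22, with 2 at least 2-fold above and 2 at least 2-fold below every other line. Kcnk5, a two-pore-domain potassium channel, stood at 4.79 CPM in KPC180, against 14.1 to 34.7 in the other lines, and the sodium-conducting Trpm4 at 5.46 CPM in KPC180, against 12.2 to 36.8 in the other lines. Rem2, a small GTPase that inhibits voltage-gated calcium channels, stood at 19.2 CPM in KPC180, against 1.02 in KPC142, 1.53 in KPC469, 2.79 in KPC490, 1.28 in KPC850 and 2.5 in KPC630, a ratio of 6.88 to KPC490 (interval 5.07 to 9.53). Slc14a1, the urea transporter of red cells and kidney, stood at 70.6 CPM in KPC180, against 0 in KPC142, 13 in KPC469, 0.348 in KPC490, 1.4 in KPC850 and 0.532 in KPC630, a ratio of 5.42 to KPC469. Without KPC469 the ratio was 50.5-fold, and KPC180 and KPC469 were the 2 lines above 1.40 CPM.

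The chloride channel regulator family gave 1 gene on each side. Clca3a1 stood at 76.1 CPM in KPC180, against 0.24 in KPC142, 6.05 in KPC469, 4.3 in KPC490, 1.87 in KPC850 and 4.42 in KPC630, a ratio of 12.6 to KPC469 (interval 10.4 to 15.4). Its neighbour on chromosome 3, Clca1, lay on the other side, with 0.364 CPM in KPC180, against 1.86 in KPC142, 4.2 in KPC469, 18.2 in KPC490, 14.6 in KPC850 and 14.7 in KPC630, a ratio of 5.1 below KPC142 (interval 2.1 to 15), and of 11.5 without KPC142. Clca3b, which lies between them, stood at 7.1 CPM in KPC180, against 0.327 to 43.2 in the other lines. The CLCA genes are near copies of each other in part, and Clca3a1 had a fractional expected count in 1 line, and sharing of reads among them was not examined.

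Pitx1 (ENSMUSG00000021506), a homeodomain transcription factor known from the hindlimb and the pituitary, stood at 27.6 CPM in KPC180, against 0 in KPC142, 0.0545 in KPC469, 1.1 in KPC490, 0 in KPC850 and 0 in KPC630. Its ratio to KPC490, the 1 line with more than 1 count, was 25 (interval 15.8 to 41.9), and it was at least 153 without KPC490. Rps6ka2, the ribosomal S6 kinase RSK3 of the MAPK pathway, had the highest level of the 22 genes, 158 CPM in KPC180, against 22.2 in KPC142, 35.9 in KPC469, 28.5 in KPC490, 12.7 in KPC850 and 22.2 in KPC630, a ratio of 4.4 to KPC469. Frmpd1, a scaffold protein with FERM and PDZ domains, stood at 70.2 CPM in KPC180, against 1.8 in KPC142, 0.49 in KPC469, 2.44 in KPC490, 6.65 in KPC850 and 6.28 in KPC630, a ratio of 10.6 to KPC850. Every line expressed Rps6ka2, whereas Frmpd1 stood at no more than 6.65 CPM and Pitx1 at no more than 1.10 CPM outside KPC180. Pitx1, Kcnab1 and Nell2 each overlap a gene on the opposite strand, and the sources used here do not say whether counting used the strand.

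The other genes above were Pla2g16, a phospholipase of fat cells, at 27.3 CPM in KPC180, against 0.24 to 4.95 in the other lines, Dynap, a dynactin-associated membrane protein, at 20.5 CPM in KPC180, against 1.1 to 5.07 in the other lines. Uggt2, which re-glucosylates misfolded glycoproteins, stood at 17.7 CPM in KPC180, against 0.479 to 4.41 in the other lines. Pla2g16 had a ratio of 5.51, and of 9.0 without KPC850. Uggt2 had a ratio of 4.01, and of 9.86 without KPC490, while Dynap had a ratio of 4.05. Pcdhga5 and Pcdhga11, variable exons of the gamma protocadherin cluster, stood at 22.9 CPM in KPC180, against 0.0532 to 4.25 in the other lines, and 29.1 CPM in KPC180, against 0 to 3.3 in the other lines. All genes of this cluster share their last exons, and both had fractional expected counts, so their split is uncertain. Pcdhgc3, a constant-type member of the same cluster, was also highest in KPC180, at 76.3 CPM, against 28.6 to 49.3 in the other lines.

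Just inside the rule stood Mmp10 at 4.23-fold, Dynap at 4.05-fold and Uggt2 at 4.01-fold, and just outside it the peptide transporter gene Slc15a2, the growth factor gene Bmp2 and Has3. Slc15a2 stood at 10.1 CPM in KPC180, against 0 in KPC142, 0 in KPC469, 2.56 in KPC490, 0 in KPC850 and 0 in KPC630, a ratio of 3.97 to KPC490. Bmp2 stood at 31.4 CPM in KPC180, against 0.36 in KPC142, 2.72 in KPC469, 8.25 in KPC490, 7.11 in KPC850 and 7.77 in KPC630, a ratio of 3.81 to KPC490. The abundant amino acid transporter gene Slc7a6 of chromosome 8, chosen after its values were seen, stood at 474 CPM in KPC180, against 135 in KPC142, 129 in KPC469, 117 in KPC490, 129 in KPC850 and 126 in KPC630, a ratio of 3.52 to KPC142.

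**Figure D2:**
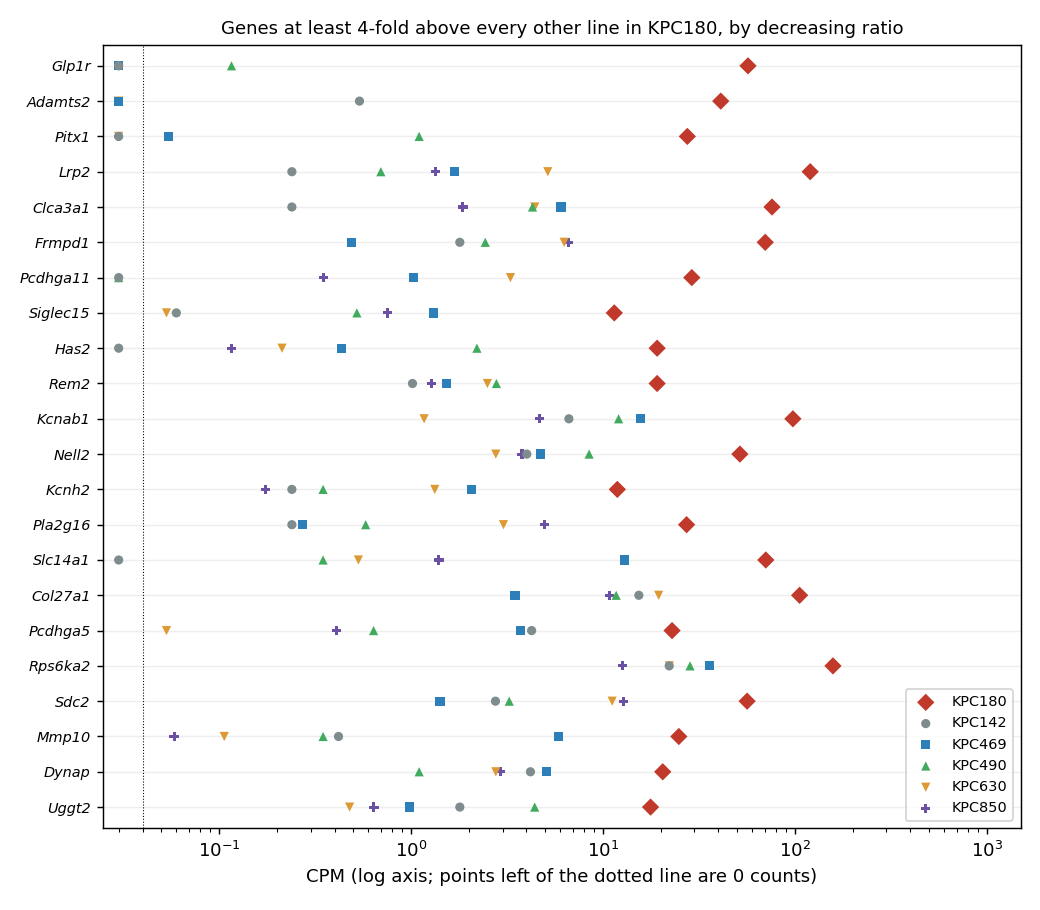
CPM of the 22 genes at least 4-fold above every other line, by line (log axis; points left of the dotted line are 0 counts), in order of the ratio of KPC180 to the nearest line. KPC180 (diamonds) stands between 11.5 and 158 CPM and, as the rule requires, right of all 5 other lines in every row.

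Most of the 61 genes below were barely detected in KPC180. Ratios of these genes are the nearest other line over KPC180. KPC180 had 0 counts of 7 of them, 1 to 3 counts of 14, 4 to 10 counts of 15 and more of 25, and 43 stood under 1 CPM. Of the 61, 58 code for proteins, the median ratio was 7.59, and 20 had at least 10 CPM in each of the other 5 lines. The interval lay wholly past 4-fold for 35 of them. For Ccn3 and Rps15a-ps7 it reached below 1, so at this depth these genes could not be told apart from their nearest line. For 24 of the 61, leaving out the nearest line moved the ratio by over 1.5 times.

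Among enzymes, Amdhd2 (ENSMUSG00000036820) was expressed by every line but KPC180. This gene codes for the deacetylase of N-acetylglucosamine-6-phosphate, a step that returns aminosugars to glycolysis and limits the hexosamine pathway. It stood at 0 CPM in KPC180, against 40.6 in KPC142, 44.8 in KPC469, 37.9 in KPC490, 58.9 in KPC850 and 37.4 in KPC630, at least 206-fold lower in KPC180. Of 16 measured genes of aminosugar metabolism, with a median log2 ratio of -0.09, Amdhd2 was the 1 gene at least 2-fold below, and KPC180 was lowest for 5. Hexa, a subunit of lysosomal hexosaminidase, was among these 5, at 10.4 CPM in KPC180, against 17 to 61.8 in the other lines. Arsb, the lysosomal sulphatase of dermatan and chondroitin sulphate, was past the rule, with 4.43 CPM in KPC180, against 26 in KPC142, 87.1 in KPC469, 29.1 in KPC490, 31.5 in KPC850 and 35.6 in KPC630, a ratio of 5.87 (interval 4.57 to 7.63).

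Other metabolic enzymes were nearly silent in KPC180. Aspa, which cleaves N-acetylaspartate, stood at 0.364 CPM in KPC180, against 45.5 in KPC142, 32.9 in KPC469, 40.5 in KPC490, 15.6 in KPC850 and 19.8 in KPC630, a ratio of 42.7 to KPC850 (interval 19.4 to 118). Xdh, which makes uric acid from xanthine, had 1 count in KPC180 and stood at 0.0607 CPM in KPC180, against 1.2 in KPC142, 18.3 in KPC469, 4.59 in KPC490, 29.5 in KPC850 and 15.3 in KPC630, a ratio of 19.7 to KPC142 (interval 3.16 to 818), and of 75.6 without KPC142. Gda, the guanine deaminase just upstream of xanthine in purine breakdown, stood at 0.91 CPM in KPC180, against 4.43 in KPC142, 8.99 in KPC469, 38.8 in KPC490, 55 in KPC850 and 71 in KPC630, a ratio of 4.87 to KPC142, and of 9.88 without KPC142. Both purine enzymes varied widely among the other lines too.

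Fut2, the fucosyltransferase of secretor blood group antigens, stood at 0.121 CPM in KPC180, against 2.22 to 22.4 in the other lines. The sulphotransferase gene Sult1d1 stood at 0.243 CPM in KPC180, against 3.18 to 21.6 in the other lines. The glutathione transferase gene Mgst1 stood at 0.607 CPM in KPC180, against 6.37 to 97.1 in the other lines. The carbonic anhydrase gene Car13 stood at 2.67 CPM in KPC180, against 11.8 to 60.6 in the other lines. Rbp2, a retinol carrier of the gut, stood at 0.121 CPM in KPC180, against 1.75 to 20.8 in the other lines. The NRF2 and glutathione list had 29 measured genes with a median log2 ratio of -0.20, of which Mgst1 was the 1 gene at least 2-fold below every other line.

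Egln3, the oxygen-sensing prolyl hydroxylase PHD3 that marks HIF proteins for decay and is itself a target of them, stood at 0.607 CPM in KPC180, against 32.1 in KPC142, 25.8 in KPC469, 49.7 in KPC490, 65.5 in KPC850 and 34.3 in KPC630. KPC180 had 10 counts, a ratio of 42.5 to KPC469 (interval 22.9 to 89.1). Its relative Egln1 and Hif1a itself, both chosen after their values were seen, were highest in KPC180 by small margins. Egln1 stood at 106 CPM in KPC180, against 54.5 to 104 in the other lines. Hif1a stood at 333 CPM in KPC180, against 184 to 281 in the other lines. Of 19 measured genes of the hypoxia response, with a median of -0.38, KPC180 was lowest for 4 and highest for 2. Vegfa, the endothelial growth factor, stood at 80.2 CPM in KPC180, against 99.1 to 184 in the other lines. Of 19 measured glycolysis genes, with a median of -0.32, KPC180 was highest for 0 and lowest for 5, and the phosphofructokinase gene Pfkp was the 1 gene at least 2-fold below, at 17.5 CPM in KPC180, against 157 in KPC142, 106 in KPC469, 77.8 in KPC490, 43.4 in KPC850 and 42.9 in KPC630.

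Signalling genes below every other line included ligands and receptors. Nrg1, the neuregulin ligand of the receptors ErbB3 and ErbB4, stood at 0.243 CPM in KPC180, against 31.6 in KPC142, 26.6 in KPC469, 4.36 in KPC490, 10.9 in KPC850 and 20.9 in KPC630, a ratio of 17.9 to KPC490 (interval 6.72 to 67.6), and of 44.9 without KPC490. Hbegf, a ligand of the EGF receptor, was on the other side, with 225 CPM in KPC180, against 47.8 in KPC142, 63 in KPC469, 102 in KPC490, 102 in KPC850 and 83.8 in KPC630, a ratio of 2.2 to KPC850. Of the 12 measured genes of the EGF receptor family and its ligands, with a median of -0.09, these were the 2 at least 2-fold from every other line.

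Genes of innate immunity and inflammation formed a further group. Sigirr, a receptor that dampens interleukin-1 and Toll-like receptor signalling, stood at 0.546 CPM in KPC180, against 27 in KPC142, 31.8 in KPC469, 35.8 in KPC490, 14.2 in KPC850 and 38.1 in KPC630, a ratio of 25.9 to KPC850 (interval 13.4 to 57.4), and of 49.5 without KPC850. Tlr4, the receptor of lipopolysaccharide, stood at 4.49 CPM in KPC180, against 20.2 in KPC142, 30.2 in KPC469, 24.9 in KPC490, 43.7 in KPC850 and 18.2 in KPC630, a ratio of 4.05 to KPC630 (interval 3.15 to 5.29). Cxcl5, a chemokine that attracts neutrophils, stood at 2.25 CPM in KPC180, against 15.9 in KPC142, 19.7 in KPC469, 55.3 in KPC490, 195 in KPC850 and 53.8 in KPC630, a ratio of 7.07 to KPC142. Csf2ra, the alpha chain of the GM-CSF receptor, had 0 counts in KPC180 and 1.70 to 20.6 CPM in the other lines, at least 9.36-fold lower, or at least 20.2 without KPC630, and the phosphoinositide kinase subunit gene Pik3r5 stood at 2.73 CPM in KPC180, against 12.2 to 68.6 in the other lines.

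Of these 5 genes, Cxcl5 belongs to the lists of NF-kB targets and of myeloid cytokines, Tlr4 to the list of nucleic acid sensing, and Sigirr, Csf2ra and Pik3r5 to none. Of 18 measured NF-kB targets, with a median log2 ratio of -0.48, KPC180 was lowest for 10 and highest for 2, and Cxcl5 and the adhesion gene Vcam1 were at least 2-fold below. Vcam1 stood at 8.07 CPM in KPC180, against 27.1 in KPC142, 42.7 in KPC469, 28.1 in KPC490, 79.3 in KPC850 and 25.6 in KPC630. Of 9 measured genes of cytokines that attract or sustain myeloid cells, with a median of -1.29, KPC180 was lowest for 3 and highest for 0, and the leukaemia inhibitory factor gene Lif stood at 7.1 CPM in KPC180, against 11.7 to 25.5 in the other lines. Cxcl16, a chemokine of T cells, was a further low gene, at 6.19 CPM in KPC180. In the other lines it stood at 18.6 CPM in KPC142, 23.9 in KPC469, 23.2 in KPC490, 32.9 in KPC850 and 36.3 in KPC630. Its list did not follow. Of 4 measured T-cell and homeostatic chemokines, with a median of 0.56, 3 lay above the median of the other lines. Cx3cl1 of this list was highest in KPC180, at 80.7 CPM, against 28 to 73.8 in the other lines. Of 13 measured genes on the nucleic acid sensing list, KPC180 was lowest for 3 and highest for 2. Their median was -0.18, inside the quartiles of all measured genes. The 13 and the 3 include Tlr4, which is a receptor of lipopolysaccharide and not a nucleic acid sensor. Of 13 measured interferon-stimulated genes, with a median of 0.06, KPC180 was highest and lowest for 0.

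The Ly6 genes of chromosome 15 were low together. They code for small lipid-anchored surface proteins, among them the stem cell antigen Sca-1 (Ly6a). Ly6e stood at 16.1 CPM in KPC180, against 314 in KPC142, 218 in KPC469, 704 in KPC490, 263 in KPC850 and 482 in KPC630, a ratio of 13.6 to KPC469 (interval 12 to 15.4). Ly6a stood at 2.25 CPM in KPC180, against 77.8 in KPC142, 28.7 in KPC469, 256 in KPC490, 50.4 in KPC850 and 426 in KPC630, a ratio of 12.8 to KPC469, and of 22.4 without KPC469. Ly6c1 stood at 0.121 CPM in KPC180, against 1.69 to 52.5 in the other lines. Lynx1, a modulator of nicotinic receptors, stood at 0.607 CPM in KPC180, against 23.6 in KPC142, 9.64 in KPC469, 18.5 in KPC490, 14.7 in KPC850 and 17.2 in KPC630. The ratio of Lynx1 was 15.9 to KPC469, and 24.2 without KPC469.

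In the order of the genome, Ly6e, Ly6a and Ly6c1 follow each other among measured genes, and Lynx1 precedes Ly6e with 1 measured gene, Ly6k, between them. Them6, a few places before Lynx1, was also lowest in KPC180, at 7.04 CPM, against 20.3 to 43.9 in the other lines. BC025446, the next measured gene after Ly6c1, was lowest in KPC180 as well, at 0.182 CPM, against 0.218 to 13.5 in the other lines. Zfp41, which follows it, was not low, at 13.2 CPM in KPC180, against 9.62 to 17.9 in the other lines. The Ly6 genes resemble each other in sequence, but their expected counts had no fractional part in any line.

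Genes of microvilli and the brush border, a group put together after the values were seen, were also below. Cdhr5, a protocadherin that links the tips of microvilli, stood at 0.789 CPM in KPC180, against 6.71 in KPC142, 6.76 in KPC469, 12.1 in KPC490, 12.4 in KPC850 and 9.85 in KPC630, a ratio of 8.51 to KPC142. Myo7b, the myosin that anchors these links, stood at 0.425 CPM in KPC180, against 5.75 in KPC142, 4.79 in KPC469, 22.1 in KPC490, 15.4 in KPC850 and 6.5 in KPC630, a ratio of 11.3 to KPC469. The actin nucleator gene Cobl stood at 0.182 CPM in KPC180, against 20.1 in KPC142, 0.817 in KPC469, 28.1 in KPC490, 25.2 in KPC850 and 18.6 in KPC630, a ratio of 4.49 to KPC469 (interval 1.27 to 24.2). Without KPC469 the ratio was 102-fold, since KPC469 was the other line with little Cobl. Other genes of the group did not follow. Cdhr2, the partner of Cdhr5, was highest in KPC180, at 219.9 CPM, against 183 in KPC142, 20.9 in KPC469, 98.4 in KPC490, 127 in KPC850 and 38.9 in KPC630, while Anks4b stood at 18.4 CPM in KPC180, against 3.21 to 47.6 in the other lines and the actin bundler gene Vil1 at 27.1 CPM in KPC180, against 21.2 to 135 in the other lines.

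Junction and polarity genes were among those below. Celsr1, a cadherin of planar cell polarity, stood at 3.03 CPM in KPC180, against 139.8 in KPC142, 75 in KPC469, 37.9 in KPC490, 30.0 in KPC850 and 104 in KPC630, a ratio of 9.87 to KPC850 (interval 7.38 to 13.5). Pard3b, a polarity scaffold, stood at 0.425 CPM in KPC180, against 4.63 to 15.6 in the other lines. Tmigd1, an adhesion protein of gut and kidney epithelium, stood at 0.971 CPM in KPC180, against 7.49 in KPC142, 7.85 in KPC469, 63.9 in KPC490, 68.8 in KPC850 and 54.3 in KPC630. Of 30 measured genes of epithelial junctions and adhesion, with a median log2 ratio of -0.39, KPC180 was lowest for 9 and highest for 4, and Ocln, Cldn3, Ehf and Epcam were at least 2-fold below every other line. The cadherin list, which holds Celsr1 and Cdhr5, had 15 measured genes with a median of 0.36, and KPC180 was highest for 5 and lowest for 2 of them. Cdh3, the P-cadherin gene, stood at 23.5 CPM in KPC180, against 1.2 in KPC142, 1.04 in KPC469, 3.31 in KPC490, 8.1 in KPC850 and 6.34 in KPC630, a ratio of 2.9 to KPC850. The occludin gene Ocln stood at 2.55 CPM in KPC180, against 9.65 in KPC142, 8.94 in KPC469, 13.1 in KPC490, 25.9 in KPC850 and 9.32 in KPC630, a ratio of 3.51 to KPC469. The claudin gene Cldn3 had 0 counts in KPC180 and stood at 0.599 to 90.7 CPM in the other lines. Of 17 measured mesenchymal genes, with a median of 0.59, KPC180 was highest for 2, the N-cadherin gene Cdh2, at 157 CPM in KPC180, against 0.599 in KPC142, 89.1 in KPC469, 62.8 in KPC490, 109.5 in KPC850 and 82.4 in KPC630, and the tropomyosin gene Tpm1, at 1052 CPM in KPC180, against 393 to 637 in the other lines.

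Genes known from neurons were among those farthest below. Nexmif, an X-linked gene of neurite extension, had 1 count in KPC180 and stood at 0.0607 CPM in KPC180, against 61.8 in KPC142, 15.4 in KPC469, 13.1 in KPC490, 29.7 in KPC850 and 84.6 in KPC630, a ratio of 215 to KPC490 (interval 38.3 to 8542). The gene farthest below was not in the neuronal list or any other list, the long non-coding RNA 4930461G14Rik of chromosome 9. It also had 1 count, and stood at 0.0607 CPM in KPC180, against 47.1 in KPC142, 47.5 in KPC469, 38.9 in KPC490, 54.2 in KPC850 and 23.5 in KPC630. Its ratio to KPC630 was 387 (interval 69.1 to 15315), and it was 640.3 without KPC630. Prss12, the protease neurotrypsin, stood at 0.182 CPM in KPC180, against 42.7 in KPC469 and 3.03 to 5.17 in the rest. Ppp2r2b, a phosphatase subunit of brain, stood at 0.0607 CPM in KPC180, against 17.7 in KPC469 and 0.929 to 2.10 in the rest. KPC469 was the only line with at least 10 CPM of Prss12 or Ppp2r2b. The neuron navigator gene Nav3 stood at 1.82 CPM in KPC180, against 11.6 to 56.2 in the other lines. The axon guidance gene Ntn4 stood at 0.789 CPM in KPC180, against 4.85 to 13.6 in the other lines. Among 23 measured neuronal and synaptic genes, with a median of 0.11, Nexmif was the 1 gene at least 2-fold from every other line.

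Regulators of cell death were also far below. Pawr, the pro-apoptotic protein Par-4, stood at 0.364 CPM in KPC180, against 26.4 in KPC142, 14.2 in KPC469, 24 in KPC490, 21.6 in KPC850 and 29.6 in KPC630, a ratio of 38.9 to KPC469 (interval 17.6 to 107), and of 59.2 without KPC469. Sh3rf2, an anti-apoptotic ubiquitin ligase, had 0 counts in KPC180 and stood at 0 CPM in KPC180, against 8.87 in KPC142, 11.9 in KPC469, 8.83 in KPC490, 25.1 in KPC850 and 31.3 in KPC630, at least 48.5-fold lower in KPC180.

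Iqgap2, a scaffold of small GTPases, was also below. It stood at 23.7 CPM in KPC180, against 101 in KPC142, 142 in KPC469, 106 in KPC490, 304 in KPC850 and 138 in KPC630. The ratio of Iqgap2 to KPC142 was 4.28 (interval 3.83 to 4.79). Fam84b, next to the non-coding 9930014A18Rik, stood at 15.3 CPM in KPC180, against 136 in KPC142, 95.5 in KPC469, 339 in KPC490, 87.5 in KPC850 and 99.2 in KPC630. Both of this pair overlap on opposite strands and had fractional expected counts. Arhgef10l, a guanine nucleotide exchange factor, stood at 3.82 CPM in KPC180, against 20.4 to 69.5 in the other lines. Shtn1, a protein of axon growth, stood at 4.01 CPM in KPC180, against 18.2 to 79 in the other lines. Vav3, another exchange factor, stood at 0.121 CPM in KPC180, against 0.899 to 14.3 in the other lines. Ffar4, a receptor of long-chain fatty acids, stood at 0.971 CPM in KPC180, against 7.37 to 40.5 in the other lines.

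The remaining genes below were Ttc39a, Ncald, Lhfpl2, Foxd1, Enpp2, Mbnl3, Cd34, Tanc2, Gm49450, Dmd, Ppp1r1b, Ccn3, Ankdd1b, Clmn, Otop3, Rps15a-ps7 and Hmgn3. Enpp2, which codes for autotaxin, had 0 counts in KPC180 and 1.52 to 31.7 CPM in the other lines, at least 8.32-fold lower, or at least 22.2 without KPC850. Cd34 had 0 counts in KPC180 and 1.05 to 35.0 CPM in the other lines, at least 5.76-fold lower, or at least 24.2 without KPC850. Otop3, a proton channel, stood at 0.243 CPM in KPC180, against 1.08 to 17.6 in the other lines, a ratio of 4.44 to KPC142, and of 29.2 without KPC142. Mbnl3, a splicing factor, had 0 counts in KPC180 and 1.05 to 10.7 CPM in the other lines. Dmd, dystrophin, stood at 0.243 CPM in KPC180, against 1.31 to 14.9 in the other lines. Ppp1r1b, which codes for DARPP-32, an inhibitor of a protein phosphatase, stood at 0.121 CPM in KPC180. It stood at 17.3 CPM in KPC469 and 0.599 to 4.47 CPM in the rest. Foxd1, a forkhead transcription factor, stood at 0.0607 CPM in KPC180, against 12.2 in KPC469 and 0.466 to 2.44 in the rest. Ncald, the calcium sensor neurocalcin delta, stood at 1.4 CPM in KPC180, against 9.53 to 15.5 in the other lines. Ttc39a, Tanc2, Ankdd1b and Clmn stood between 0.425 and 1.09 CPM in KPC180 and at no less than 2.04 CPM in any other line. Gm49450 overlaps the near-identical tubulin genes Tuba1a and Tuba1b, and Rps15a-ps7 is a processed copy of a ribosomal protein gene, so their values are uncertain. Just inside the rule stood Iqgap2, Tlr4 and Hmgn3 at 4.28, 4.05 and 4.03-fold, with Hmgn3 at 8.17 without KPC850. Just outside it stood H1fx, a linker histone, at 3.96-fold, Ssbp2, a DNA-binding protein, at 3.75-fold and the long non-coding RNA 4933404O12Rik at 3.51-fold.

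**Figure D3:**
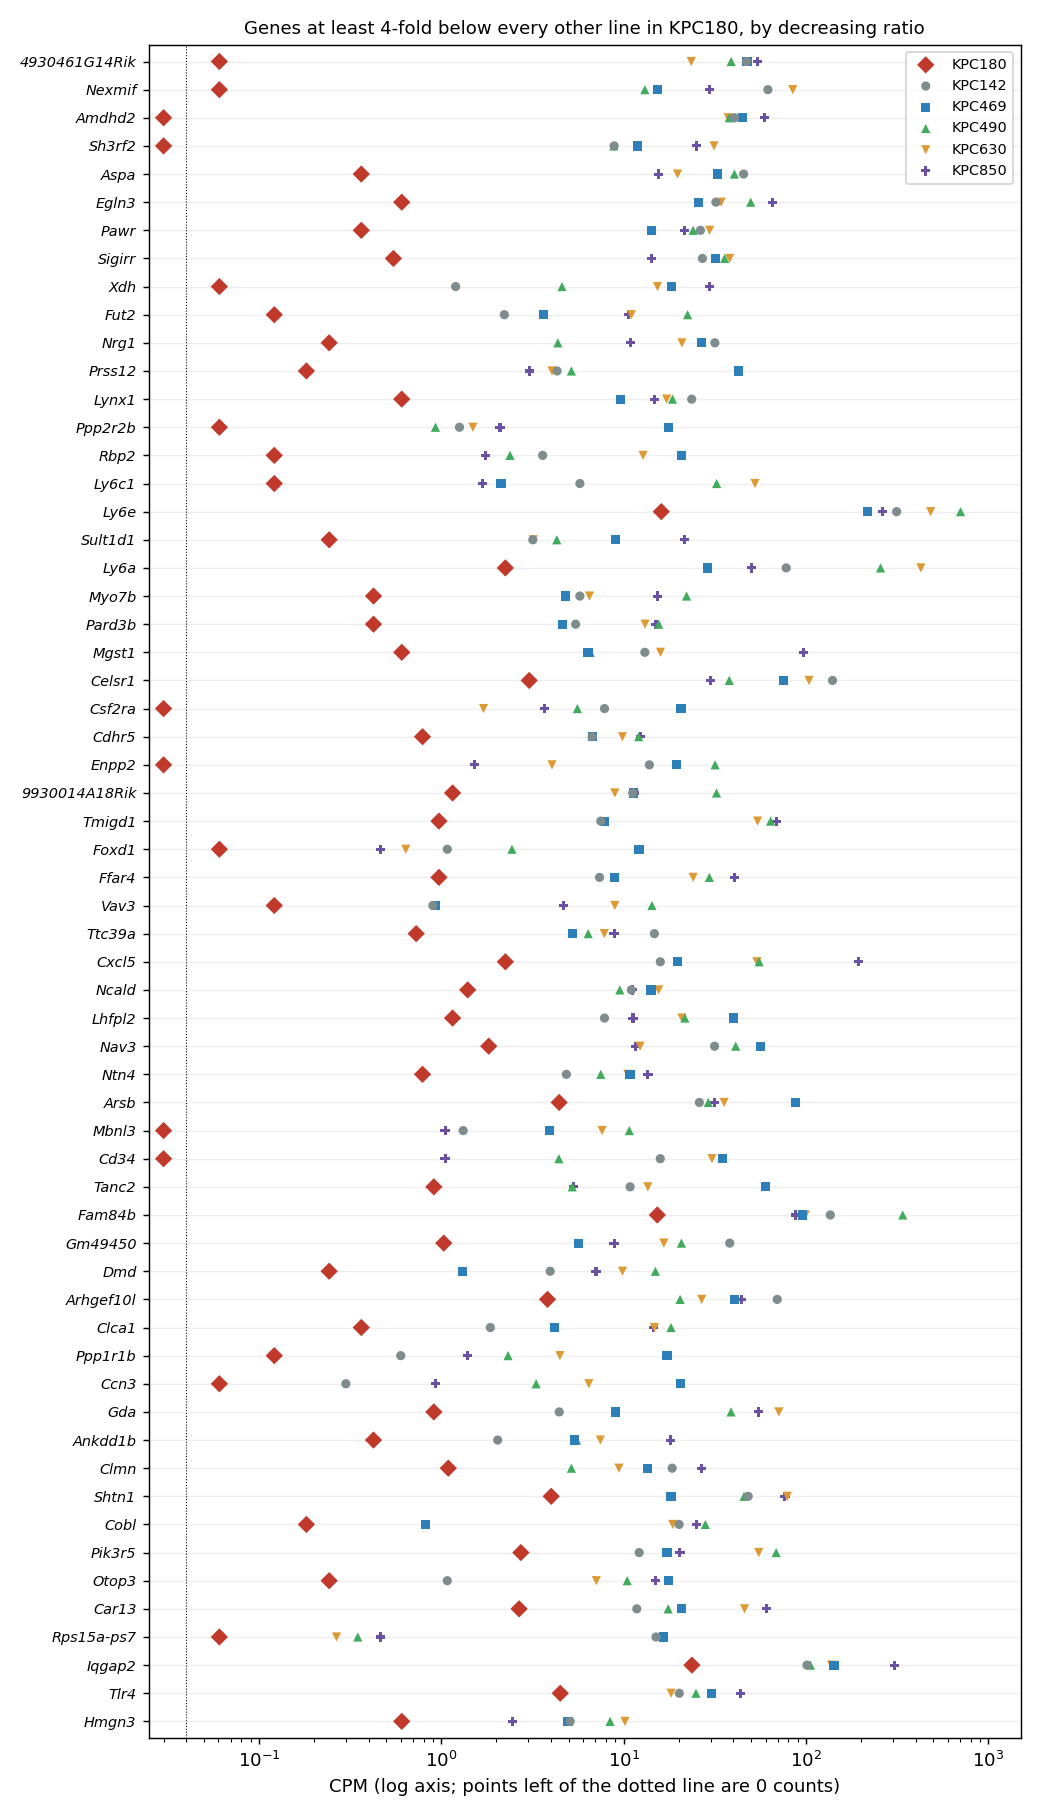
CPM of 60 of the 61 genes at least 4-fold below every other line, by line (log axis; points left of the dotted line are 0 counts), in order of the ratio of the nearest line to KPC180. As the rule requires, KPC180 (diamonds) stands left of all 5 other lines in every row, and it is at 0 counts in 6 rows.

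Genes of MAPK output and feedback, 26 measured with a median log2 ratio of 0.56, had KPC180 as the highest line 8 times and as the lowest 0 times. The transcription factor gene Fosb, at 11.7 CPM in KPC180, against 2.7 in KPC142, 3.32 in KPC469, 3.66 in KPC490, 2.22 in KPC850 and 3.99 in KPC630, was the 1 gene at least 2-fold above, and Junb stood at 275 CPM in KPC180, against 113 to 158 in the other lines. Fosb reached 10 CPM in KPC180 alone. TGF-beta genes, 22 measured with a median of 0.43, had KPC180 highest for 8 and lowest for 2. The inhibitory Smad7 stood at 95 CPM in KPC180, against 44 in KPC142, 35.7 in KPC469, 34.9 in KPC490, 41.9 in KPC850 and 37.4 in KPC630. The secreted inhibitor gene Fst stood at 0.546 CPM in KPC180, against 1.34 to 27.9 in the other lines.

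Targets of YAP/TAZ and TEAD, 27 measured with a median of 0.34, had KPC180 highest for 8 and lowest for 1, and 22 of 27 lay above the median of the other lines. Among them Ankrd1 stood at 378 CPM in KPC180, against 43.1 to 233 in the other lines, Ccn2 at 331 CPM in KPC180, against 84.9 to 220.5 in the other lines and Ccn1 at 147 CPM in KPC180, against 31 to 98.3 in the other lines, each with KPC630 as the nearest line. No gene of the YAP/TAZ list was at least 2-fold from every other line.

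The classical programme of pancreatic cancer, 21 measured genes with a median of 0.48, had KPC180 highest for 8 and lowest for 2. Anxa10, an annexin of gastric epithelium, stood at 308 CPM in KPC180, against 112 in KPC142, 86.6 in KPC469, 102 in KPC490, 90.9 in KPC850 and 93.1 in KPC630, a ratio of 2.75, and Foxa3, a liver and gut transcription factor, at 11.3 CPM in KPC180, against 1.08 in KPC142, 2.45 in KPC469, 2.27 in KPC490, 3.73 in KPC850 and 0.532 in KPC630, a ratio of 3.03. Foxa3 reached 10 CPM in KPC180 alone. The aspartic protease gene Ctse stood at 437 CPM in KPC180, against 21.6 to 246 in the other lines. Gata6 stood at 86.7 CPM in KPC180, against 19.2 to 63 in the other lines. Of 23 measured genes of the unfolded protein and integrated stress response, with a median of -0.41, KPC180 was lowest for 6 and highest for 1, and the folding factor gene Sdf2l1 stood at 11 CPM in KPC180, against 22 to 43.6 in the other lines.

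Lists with medians near that of all genes were cell cycle (45 measured, 0.09), fatty acid and lipid metabolism (30 measured, -0.05), MHC class I (11 measured, 0.01) and the drivers and tumour suppressors of pancreatic cancer (24 measured, -0.07). Cholesterol synthesis genes, 25 measured, had a median of 0.24, and 21 of 25 lay above the median of the other lines. No Hox gene and no germ-line gene of the lists reached 10 CPM in any line.

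**Figure D4:**
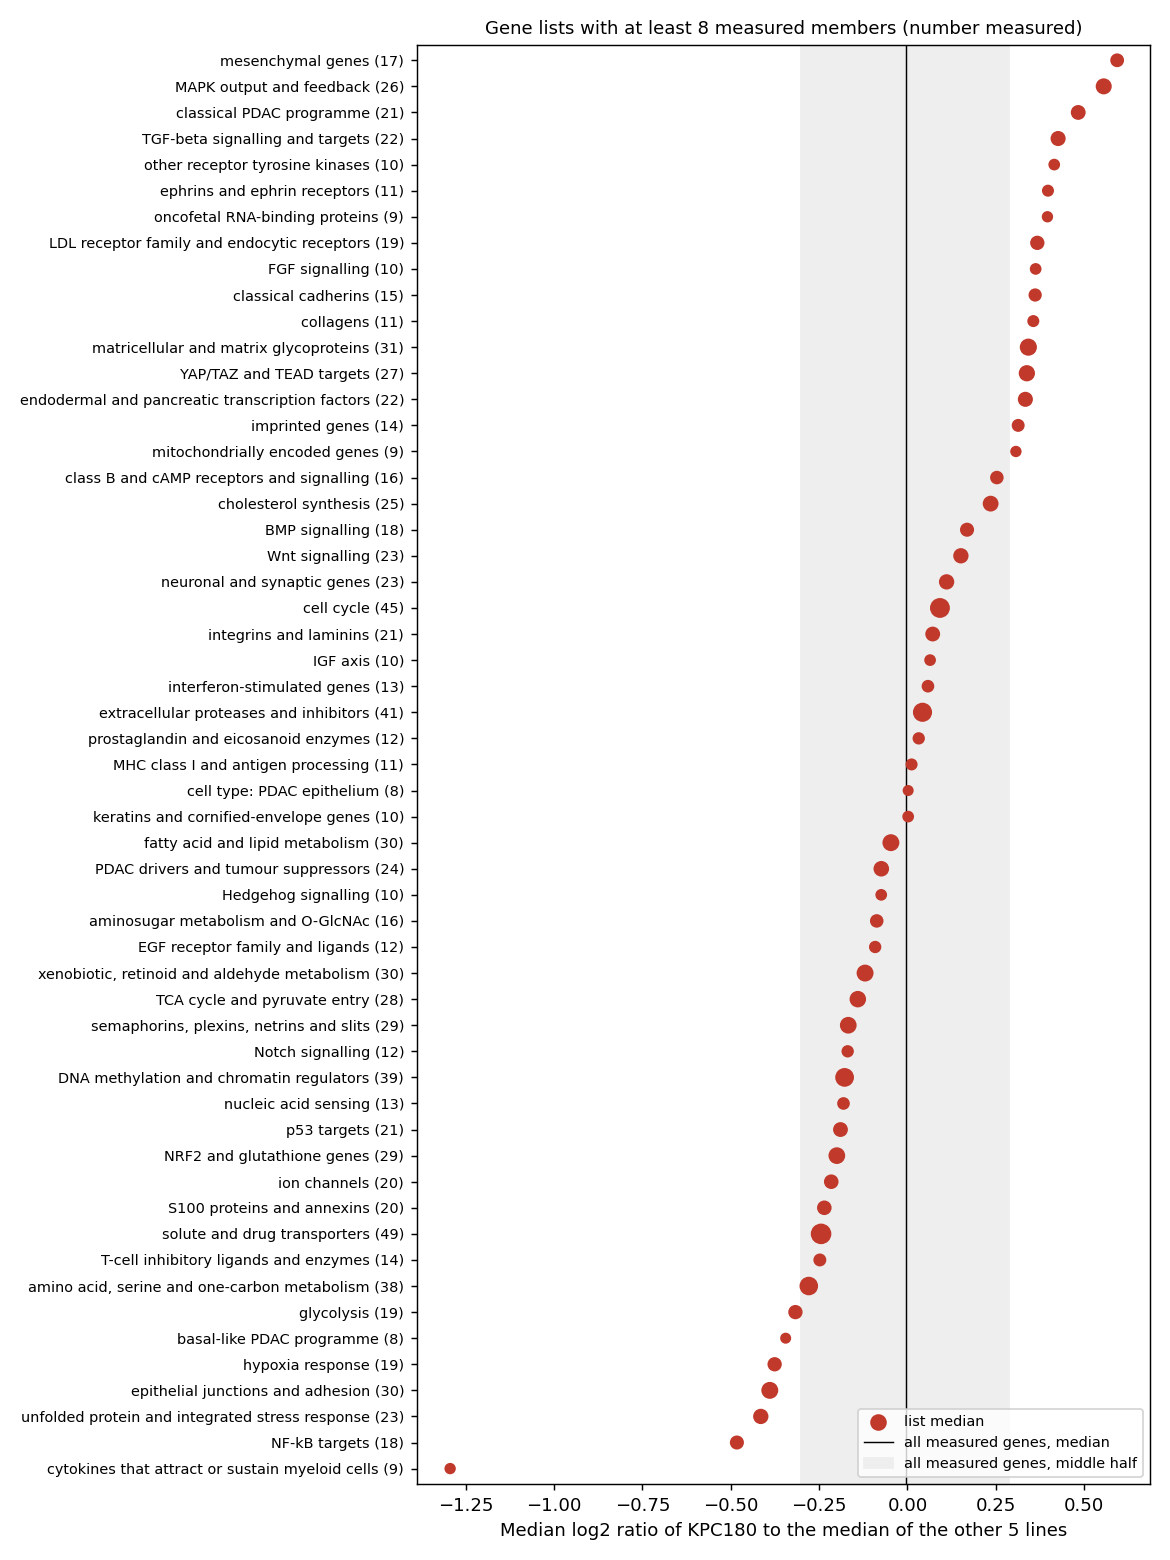
Median log2 ratio of KPC180 to the median of the other 5 lines for each gene list with at least 8 measured members (point area grows with the number measured, given in brackets), with the median of all measured genes as a line and their quartiles as a grey band. Cytokines of myeloid cells lie lowest at -1.29, and mesenchymal genes and MAPK output lie highest at 0.59 and 0.56.

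Levels in KPC180 also differed by chromosome. Over 10178 measured genes on chromosomes 1 to 19 and X, the median log2 ratio was highest on chromosome 8 (0.50, quartiles 0.22 and 0.72, 578 genes) and chromosome 18 (0.41, quartiles 0.19 and 0.64, 270 genes). KPC180 was the highest line for 43.4% of the genes on chromosome 8 and 54.1% of those on chromosome 18, beside 16% of all measured genes. The lowest medians were -0.26 on chromosome X, -0.25 on chromosome 13 and -0.20 on chromosome 11. Gene dosage was not measured, and what these shifts come from was not tested.

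Genes past the rules were in part on the same chromosomes. Chromosome 18 held the most genes above, 5 of the 22 (Dynap, Pcdhga5, Pcdhga11, Siglec15 and Slc14a1) and also 3 genes below (Myo7b, Sh3rf2 and Ppp2r2b). Chromosome 8 held 0 genes above and 1 below, Nrg1. Under the 2-fold rule the shares above were highest on these chromosomes, at 3.70% on chromosome 18 and 1.90% on chromosome 8, beside 0.782% of all measured genes. The shares below were highest on chromosome 15, at 4.34%, and chromosome 13, at 4.16%, followed by 2.59% on chromosome 18 and 2.24% on chromosome 11, beside 1.48% of all. Chromosome 15, with 438 measured genes, held 11 genes below and 3 above (Has2, Nell2 and Sdc2), with a median of -0.11. Of its genes below, Lynx1, Ly6e, Ly6a and Ly6c1 lie close together. Ccn3 and Enpp2 are neighbours, as are Fam84b and 9930014A18Rik. On chromosome 18, Pcdhga5 and Pcdhga11 belong to the same cluster, and Siglec15 and Slc14a1 are neighbours. The 4-fold counts of these chromosomes are thus in part counts of neighbouring genes. The shares over all measured genes were 0.215% above and 0.596% below. Within chromosomes, the longest run of measured neighbours with KPC180 as the lowest line was 14 genes on chromosome 11, starting with Faap100 and ending with Sirt7 (median log2 ratio -0.69), and the longest with KPC180 as the highest was 11 genes on chromosome 18, starting with Thoc1 and ending with Npc1 (0.55).

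**Figure D5:**
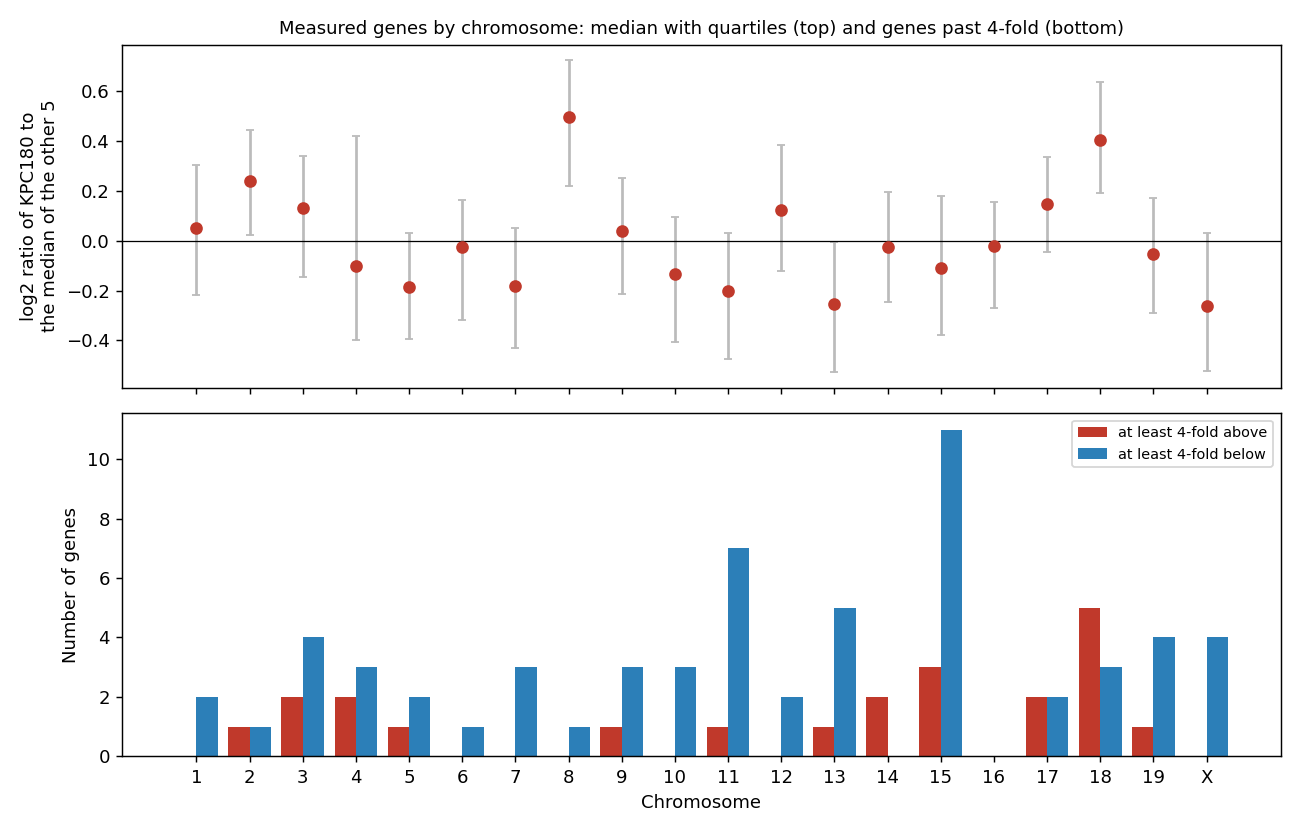
Top, median log2 ratio of KPC180 to the median of the other 5 lines for measured genes of each chromosome, with bars for the quartiles; bottom, number of genes at least 4-fold above or below every other line. Chromosomes 8 and 18 have the highest medians, and chromosome 15 holds the most genes below.

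Several genes past the rule lay beside each other, and some of the genes next to them kept levels like those of the other lines. Pawr and Nav3 of chromosome 10 follow each other among measured genes. Ppp1r12a, just before them, stood at 71.9 CPM in KPC180, against 69.4 to 106 in the other lines. E2f7, just after them, stood at 44.3 CPM in KPC180, against 24.1 to 38.4 in the other lines. Just before Nexmif of chromosome X lies the ubiquitin ligase gene Rlim, which stood at 182 CPM in KPC180, against 104 to 191 in the other lines. Arsb and Lhfpl2 of chromosome 13 also follow each other, and Scamp1, just after them, was lowest in KPC180 too, at 19.8 CPM, against 28.1 to 68.1 in the other lines. On chromosome 13 the thrombin receptor gene F2r, which lies just before Iqgap2, was highest in KPC180, at 979.9 CPM, against 440.3 in KPC142, 824 in KPC469, 440.5 in KPC490, 387 in KPC850 and 349 in KPC630. Sh3rf2 of chromosome 18 is followed by the tRNA ligase gene Lars, which stood at 226 CPM in KPC180, against 134 to 328 in the other lines, and preceded by Prelid2, which was lowest in KPC180, at 0.121 CPM, against 0.218 to 11.3 in the other lines. On the same chromosome Siglec15 and Slc14a1, both above, follow each other, between Epg5 at 61.3 CPM in KPC180, against 33.6 to 101 in the other lines. Setbp1 stood at 27 CPM in KPC180, against 13.1 to 22.9 in the other lines.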

How the data were processed

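RNA sequencing of 6 cell lines, 1 library each, was analysed. The authors deposited a table of expected counts per gene, which per the submitters' processing notes were made with Trimmomatic 0.36, STAR 2.7.10b, RSEM 1.3.3 and build GRCm39. Between 5.28% and 5.66% of the values per library were fractional, and all were rounded to whole numbers. Totals were 16471558 to 18701274 counts, and TMM factors were 0.986 to 1.01 (edgeR 4.0.16, R 4.3.3), from which CPM were computed. The strand setting of the counting is not given in the sources used here.

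Genes with at least 10 CPM in any line were compared as ratios of KPC180 to the nearest other line, with exact conditional binomial 95% intervals for counting error, and a library at 0 counts was set to 3 counts. Ratios of genes below are given as the other line over KPC180. No test was run, because each line has 1 library. The calculations were run on simulated counts in which chosen genes were moved by a known fold in KPC180. The simulated lines differed otherwise by counting error only. That run checked the code and not how the 4-fold rule serves real lines. List medians are of log2 ratios of KPC180 to the median of the other 5 lines.

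GENCODE vM21 and RefSeq tables, both of GRCm38, gave names (52029 of 56953 IDs), chromosomes, gene order and promoters. Coordinates printed are of GRCm38.p6. Promoter entries used here did not include Pitx1, Igf2bp1 or Sh3rf2. The genes described and the 72 lists were chosen with earlier results of these data known. By rule, named genes were the 5 markers, the 20 largest ratios on each side, genes past 4-fold in a list, up to 3 extreme members per list and 3 on either side of each threshold. The remaining genes past 4-fold are named to account for all of them. Genes said to be chosen after their values were seen, the neighbours of genes past the rule, and Cdhr2, Anks4b, Vil1, Cubn, Has1, Pcdhgc3, Trpm4, Epcam, Vcan, Map2, Tubb3 and Afp fall outside that rule. A few items, among them 1 of the 61 genes below, are not reported here. The alternatives were other normalizations (DESeq2 1.42.0 size factors among them), filters, thresholds, floors and leaving out each line.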

Additional observations from a re-analysis of the deposited data

How the results depend on the processing

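With 22 genes above and 61 below as reported, DESeq2 size factors gave 22 and 61, plain totals 21 and 62, upper quartiles 20 and 61, unrounded counts 22 and 61, and a floor of 1 count 22 and 68. A minimum of 20 CPM gave 17 and 45. Larger moves came with a minimum of 1 CPM (79 above, 98 below), no minimum (91 and 103), a 2-fold rule (80 and 151), an 8-fold rule (9 and 27), and the median of the other lines in place of the nearest (128 and 237). Requiring the whole interval past 4-fold gave 18 and 35. Leaving out 1 of the other lines gave 24 to 34 genes above and 63 to 88 below, and the highest count above came without KPC850. All 22 genes above remained in each case. Of the 61 genes below, 55 remained without KPC469, 58 without KPC490, 59 without KPC850 and 60 without KPC142 or KPC630. The genes lost had reached 10 CPM only in the line left out. Without KPC469 these were Prss12, Ppp2r2b, Csf2ra, Foxd1, Ppp1r1b and Ccn3.

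The following alternatives were added after seeing the data. A prior count of 2 gave 20 above and 58 below, of which 51 of the 61 remained. A minimum of 5 CPM in the lowest other line gave 33 below, since 28 of the 61 had less than 5 CPM in the nearest line. For genes past the rule, a floor of 1 count, the median of the other lines or the omission of a line can only keep or raise the ratio. Their direction therefore could not change under these settings. The other normalizations and unrounded counts moved the ratios by 0.961 to 1.04 times, too little to reverse a 4-fold ratio. Direction was not compared under the prior count of 2.

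No paired analysis was possible because each line is a group of its own with 1 library. With 1 library the spread between cultures of KPC180 is unknown, so no ratio here can be set against it. KPC180 had 10 or fewer counts of most genes below, which gives wide intervals.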

Other observations

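Beyond the genes already described, KPC180 was the highest of the lines for 5 of 9 measured oncofetal RNA-binding protein genes, with a median log2 ratio of 0.40, and for 4 of 10 measured genes of other receptor tyrosine kinases, with a median of 0.42. Flt4, the lymphatic receptor VEGFR-3, stood at 64.3 CPM in KPC180, against 0 in KPC142, 1.09 in KPC469, 1.22 in KPC490, 32.5 in KPC850 and 24.2 in KPC630. Axl, a receptor of GAS6, stood at 846 CPM in KPC180, against 678 in KPC142, 749 in KPC469, 553 in KPC490, 590.4 in KPC850 and 566 in KPC630. Among ephrins and ephrin receptors, 11 measured with a median of 0.40, Epha4 stood at 138 CPM in KPC180, against 8.15 in KPC142, 20.3 in KPC469, 80.9 in KPC490, 109 in KPC850 and 88.4 in KPC630.

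Of 20 measured S100 and annexin genes, with a median of -0.24, KPC180 was lowest for 7 and highest for 3. S100a14, an S100 protein of epithelia, stood at 2.49 CPM in KPC180, against 5.87 in KPC142, 6.16 in KPC469, 40.4 in KPC490, 19.5 in KPC850 and 16.3 in KPC630. All 9 measured mitochondrially encoded genes lay above the median of the other lines, with a median of 0.31. Of 38 measured genes of amino acid, serine and one-carbon metabolism, with a median of -0.28, KPC180 was lowest for 8 and highest for 1. Shmt2, the mitochondrial serine hydroxymethyltransferase, stood at 146 CPM in KPC180, against 178 in KPC142, 279 in KPC469, 292 in KPC490, 196 in KPC850 and 188 in KPC630. Krt14, a keratin of basal epithelium, stood at 0.728 CPM in KPC180, against 3.48 in KPC142, 6.59 in KPC469, 2.03 in KPC490, 37.3 in KPC850 and 20.3 in KPC630.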
